A study of Danio rerio with 4 samples.

Results

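The hatching gland proteases described here are 5 genes, he1a, he1b, he2, ctsl1b and ctsll, taken by symbol from the gene column of 4 expression files that list 14417 genes each. All 5 symbols were found in every file, and all 5 had a mean over libraries above 1 FPKM, the floor used below. The libraries are RNA-seq of zebrafish cells sorted as Gata1+ from a gata1:GFP strain, in which a fluorescent reporter marks red cell precursors. Embryos carried either a foxo3b morpholino oligonucleotide (MO), against a FOXO transcription factor gene, or a standard control MO, both injected at the one-cell stage. The groups are foxo3b MO at 48 hours post fertilization (hpf), control at 48 hpf, foxo3b MO at 24 hpf and control at 24 hpf, with 1 library each. The labels do not say how many embryos were pooled or what the MO binds. With 1 library per group there is no spread within a group and no test, so every difference below is one between 2 libraries.

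The hatching gland is a transient tissue that forms over the yolk of the fish embryo and fills with secretory granules. Its cells release proteases that digest the chorion, the envelope around the embryo, at hatching, and the gland is lost afterwards. In zebrafish the choriolytic enzyme is encoded by he1 genes of the astacin family, which are zinc metalloproteases, while ctsl1b encodes a cathepsin L, a cysteine protease, and is also known as hatching gland gene 1. The gland derives from anterior mesoderm and is not a blood tissue.

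Values are FPKM, fragments scaled to transcript length and to the mapped fragments of the library, as deposited by the authors. The files hold no counts and the absolute depth is unknown. Single-read steps among the lowest values put the foxo3b MO libraries at 0.497 (48 hpf) and 0.545 (24 hpf) of the depth of the 24 hpf control library, and the 48 hpf control library at 0.719 of it. Between 41.9% and 45.6% of the low-value genes used lay on such steps, so these depths are estimates. They hold only if no other scaling between libraries was applied to the FPKM. Between 748 and 1151 genes per library were listed at 0, none of them a protease described here. The transcript of foxo3b, the gene targeted by the MO, stood at 50.3 FPKM in foxo3b MO and 38.1 FPKM in control at 48 hpf, and at 46.5 FPKM in foxo3b MO and 6.402 FPKM in control at 24 hpf. It was therefore higher in both foxo3b MO libraries, and by far the more at 24 hpf. What lay behind the higher transcript level was not tested. Since an MO can block translation without lowering the transcript, the extent of knockdown is not known from these values. The sorted cells also held transcripts of other tissues. The red cell factor gene gata1a stood between 2.49 and 8.23 FPKM over the 4 libraries, while the keratin gene krt4, of the outer epidermal layer, stood between 8263 and 10879 FPKM. These genes differ in usual abundance and do not measure the share of red cells. The globin gene hbae3 stood between 928 and 11506.5 FPKM, and 13 red cell markers summed to between 3807 and 26169.5 FPKM.

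The hatching enzyme genes lie side by side on chromosome 22 of the Zv9 assembly. In the files he1a spans 14237420 to 14238862, he1b spans 14242142 to 14243515 and he2 spans 14246500 to 14248788, so the 3 genes occupy 11369 bases with gaps of 3279 and 2984 bases. The gene ctsl1b lies on chromosome 12 at 17684089 to 17686401 and ctsll on chromosome 5 at 25974811 to 25978601. None of the 5 loci overlaps another gene in the files. In a current RefSeq gene table, built on the GRCz12tu assembly and used here for names and gene order only, he1a, he1b and he2 are named he1.1, he1.2 and he1.3, and ctsl1b is named ctslb. Because he1a and he1b are closely related tandem copies, reads could be divided between them in counting, and the single values of each are uncertain.

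The hatching enzyme genes he1b and he1a were among the abundant transcripts in every library. The gene he1b stood at 2989.7 FPKM in foxo3b MO and 1334 FPKM in control at 48 hpf, and at 4627 FPKM in foxo3b MO and 4864 FPKM in control at 24 hpf. Its 24 hpf values lay close together, and control at 48 hpf was the lowest of the 4 libraries. In the order of all genes from the highest FPKM, he1b ranked 95 in foxo3b MO and 190 in control at 48 hpf, and 80 and 92 in foxo3b MO and control at 24 hpf.

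The neighbouring copy he1a stood at 1655 FPKM in foxo3b MO and 610.1 FPKM in control at 48 hpf, and at 2267 FPKM in foxo3b MO and 1504 FPKM in control at 24 hpf. Here both foxo3b MO libraries were above both control libraries. Summed to lessen the uncertainty between the copies, he1a and he1b came to 4645 FPKM in foxo3b MO and 1944 FPKM in control at 48 hpf, and to 6894 FPKM in foxo3b MO and 6367 FPKM in control at 24 hpf. The sum thus kept the order seen for ctsl1b, he2 and ctsll below, with foxo3b MO above control at each stage and both 24 hpf libraries above both 48 hpf libraries.

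The third astacin gene of the cluster, he2, was far less abundant and was low in the 48 hpf libraries. It stood at 5.30 FPKM in foxo3b MO and 1.22 FPKM in control at 48 hpf, and at 215 FPKM in foxo3b MO and 205 FPKM in control at 24 hpf. Its rank among all genes was 9132 in foxo3b MO and 11905 in control at 48 hpf, against 605 in foxo3b MO and 644 in control at 24 hpf.

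The cathepsin gene ctsl1b stood at 143 FPKM in foxo3b MO and 55.1 FPKM in control at 48 hpf, and at 1486 FPKM in foxo3b MO and 1241 FPKM in control at 24 hpf. The second cathepsin gene, ctsll, which encodes a cathepsin L-like protease, stood at 18.4 FPKM in foxo3b MO and 5.05 FPKM in control at 48 hpf, and at 220.2 FPKM in foxo3b MO and 212 FPKM in control at 24 hpf. For both genes the 24 hpf values were similar, the 48 hpf values were lower by an order of magnitude or more, and control at 48 hpf was the lowest library. The order of the 5 genes by FPKM, a per-length scale, was he1b, he1a, ctsl1b, ctsll and he2 at 48 hpf in both libraries and the same at 24 hpf in both libraries, with ctsll and he2 close together at 24 hpf. Together the 5 transcripts made up 0.320% of total FPKM in foxo3b MO and 0.0835% in control at 48 hpf, and 0.559% in foxo3b MO and 0.351% in control at 24 hpf. Total FPKM was 1.505e+06 in foxo3b MO and 2.402e+06 in control at 48 hpf, and 1.577e+06 and 2.289e+06 at 24 hpf. The shares therefore differ more between foxo3b MO and control than the summed FPKM do. That sum was 4812 in foxo3b MO and 2006 in control at 48 hpf, and 8815 and 8026 at 24 hpf.

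**Figure D1:**
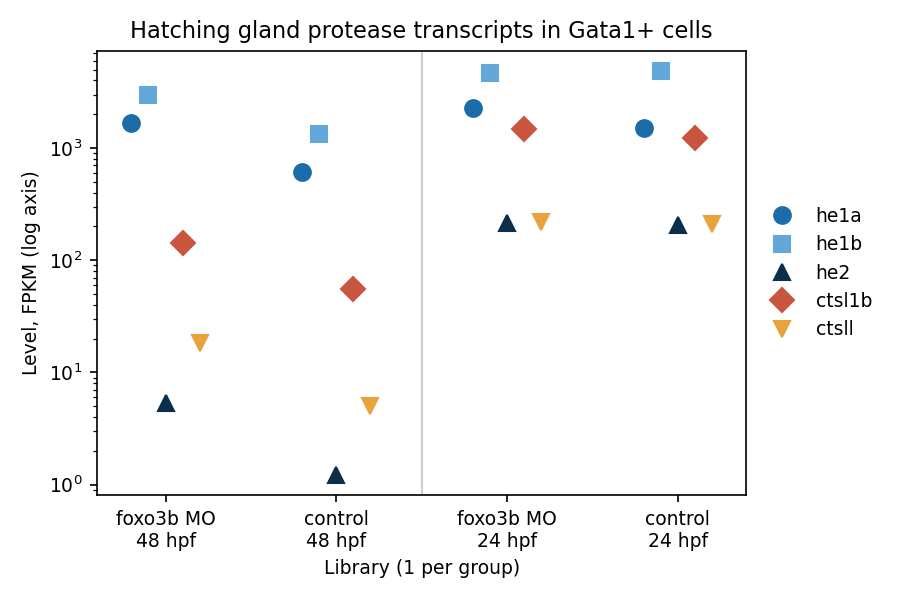
FPKM (log axis) of he1a, he1b, he2, ctsl1b and ctsll in the 4 libraries, 1 point per gene and library, shifted sideways by gene for legibility. All 5 genes are lowest in control at 48 hpf, where he2 stands at 1.22 FPKM.

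Differences were expressed as log2((FPKM + 1)/(FPKM + 1)) for the 11971 genes whose mean reached 1 FPKM, and a gene was called when it differed at least 2-fold on that scale. The added 1 FPKM understates the differences of he2 and ctsll at 48 hpf, for which ratios of FPKM are also given. The 4 comparisons share libraries with one another, so their values are set side by side and are not independent.

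At 48 hpf all 5 protease transcripts were higher in foxo3b MO than in control, and all 5 were called. Over all genes, 1.92% were at least 2-fold higher in this comparison, and 2.76% of the 1233 genes whose mean reached 100 FPKM, as the means of all 5 proteases did. The 48 hpf values of he2 and ctsll lay far below 100 FPKM, so their means reached it through the 24 hpf libraries. The mean of ctsl1b did so as well, from 143 FPKM in foxo3b MO and 55.1 FPKM in control at 48 hpf. That set therefore does not match the 48 hpf levels of these genes. With equal total FPKM all 5 were called beside 16.7% of all genes. With 5 FPKM added in place of 1 FPKM he2 had a log2 fold of 0.73. That left 4 of the 5 called, beside 0.81% of all genes. The largest log2 fold was that of ctsll, at 1.68, or 3.64 times the control FPKM. The gene he2 had a log2 fold of 1.51, or 4.36 times the control FPKM from a control value of 1.22 FPKM. The gene he1a followed at 1.44 (2.71 times), ctsl1b at 1.36 (2.597 times) and he1b at 1.16 (2.24 times), and the sum of he1a and he1b had a log2 fold of 1.26 (2.39 times). The median of the 5 was 1.44, against -0.02 over all genes, and in the order of all log2 folds from the highest the 5 genes ranked between 57 for ctsll and 137 for he1b.

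At 24 hpf none of the 5 transcripts was called in either direction between foxo3b MO and control. The background over all genes was 3.12% called as higher and 1.94% called as lower. The log2 folds were 0.59 for he1a, 0.26 for ctsl1b, 0.07 for he2, 0.06 for ctsll and -0.07 for he1b. Their median of 0.07 lay below the all-gene median of 0.19. On the scaling by the median of gene ratios, which moves the all-gene median by -0.20, the values of he2 and ctsll turned negative, and with equal total FPKM, which moves it by 0.46, that of he1b turned positive. The direction at 24 hpf therefore depends on the scale for these 3 genes. On the equal-total scale he1a reached 1.13, so that 1 of the 5 was called, beside 19.5% of all genes on that scale.

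The foxo3b MO log2 fold at 48 hpf minus that at 24 hpf was positive for all 5 genes and at least 1 for 4 of them, against 2.95% of all genes and 74 of the 1233 genes whose mean reached 100 FPKM. It was 1.62 for ctsll, 1.44 for he2, 1.24 for he1b, 1.102 for ctsl1b and 0.85 for he1a, with an all-gene median of -0.20. The value of he1a passed 1 with median-ratio scaling (1.101) and with equal totals without ribosomal protein genes (1.18). On those scales all 5 were at least 1, beside 5.33% and 6.55% of all genes. The value of he2 was 0.66 when 5 FPKM were added in place of 1 FPKM. That left 3 of the 5 at 1 or more, beside 1.55% of all genes.

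**Figure D2:**
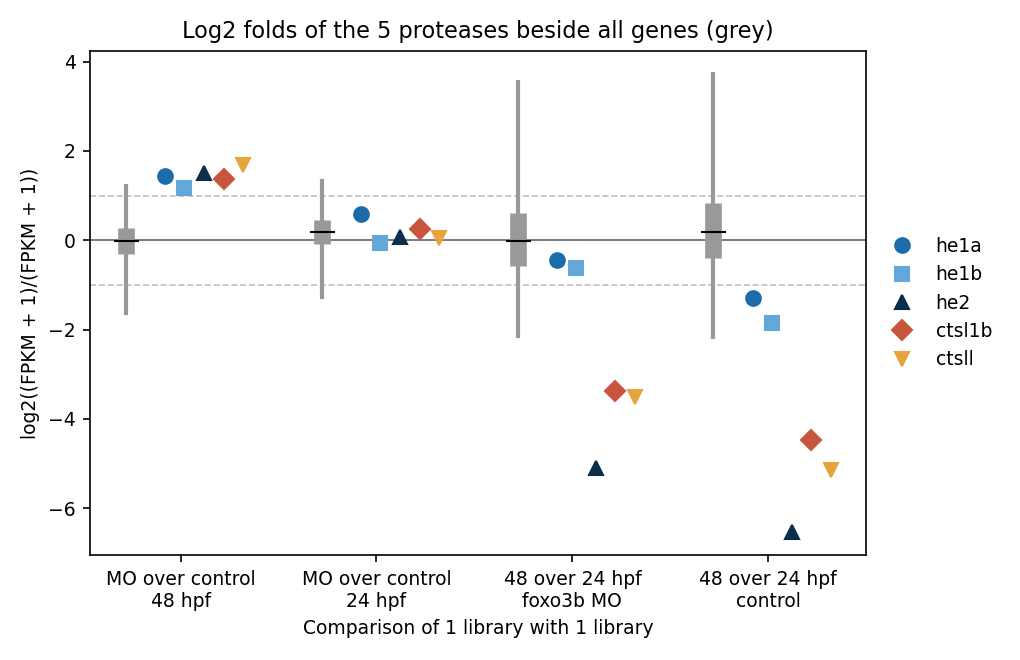
Log2((FPKM + 1)/(FPKM + 1)) of the 5 proteases in 4 comparisons of 1 library with 1 library. Grey marks all 11971 genes, with the thin line from percentile 1 to 99, the thick bar from 25 to 75 and the dash at the median, and dashed lines stand at 2-fold. All 5 proteases lie above 2-fold for foxo3b MO over control at 48 hpf (1.16 to 1.68), and he2 lies lowest in both comparisons of stages.

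Between stages all 5 transcripts were lower at 48 hpf than at 24 hpf in both groups, by very different amounts. In control, all 5 were called as at least 2-fold lower, against 8.75% of all genes and 15.8% of genes whose mean reached 100 FPKM. In foxo3b MO, 3 of the 5 were called as lower, against 11.5% of all genes and 12.3% of the more abundant ones. The uncalled transcripts were he1a and he1b. The means of he2, ctsl1b and ctsll reached 100 FPKM only through their 24 hpf values, the higher side of both stage comparisons. The set of more abundant genes is therefore not a matched background for these genes.

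The gene he2 had a log2 fold between stages of -5.10 in foxo3b MO and -6.54 in control. As ratios of FPKM, its level at 24 hpf was 40.7 times that at 48 hpf in foxo3b MO and 169 times in control. The control value was the second lowest of all 11971 log2 folds in that comparison, followed by ctsll in place 3 and ctsl1b in place 5.

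The cathepsin genes had intermediate values. The log2 fold of ctsll between stages was -3.51 in foxo3b MO and -5.14 in control, and that of ctsl1b was -3.37 in foxo3b MO and -4.47 in control. In foxo3b MO these values ranked 18 and 20 from the lowest, and he2 ranked 7. The log2 folds of he1a and he1b lay nearest 0. For he1a the log2 fold was -0.45 in foxo3b MO and -1.30 in control, and for he1b it was -0.63 in foxo3b MO and -1.87 in control. The sum of both copies had -0.57 in foxo3b MO and -1.71 in control, beside all-gene medians of -0.03 in foxo3b MO and 0.18 in control.

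Ratios between genes within 1 library do not depend on how libraries are scaled. The sum of he1a and he1b was 876 times the he2 level in foxo3b MO and 1600 times in control at 48 hpf, against 32.0 times in foxo3b MO and 31.0 times in control at 24 hpf. The 3 neighbouring astacin genes therefore differed in how much of their 24 hpf level was present at 48 hpf, in both groups. The ratio of he1b to ctsl1b was 20.9 in foxo3b MO and 24.2 in control at 48 hpf, and 3.11 in foxo3b MO and 3.92 in control at 24 hpf. The 2 cathepsin transcripts kept a more even ratio, with ctsl1b over ctsll at 7.78 in foxo3b MO and 10.9 in control at 48 hpf, and at 6.75 in foxo3b MO and 5.86 in control at 24 hpf. The ratio of ctsll to he2 was 3.47 in foxo3b MO and 4.16 in control at 48 hpf, and close to 1 at 24 hpf, at 1.02 in foxo3b MO and 1.03 in control. The ratio of he1b to he1a was 1.81 in foxo3b MO and 2.19 in control at 48 hpf, and 2.04 in foxo3b MO and 3.23 in control at 24 hpf, subject to the division of reads between the copies.

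**Figure D3:**
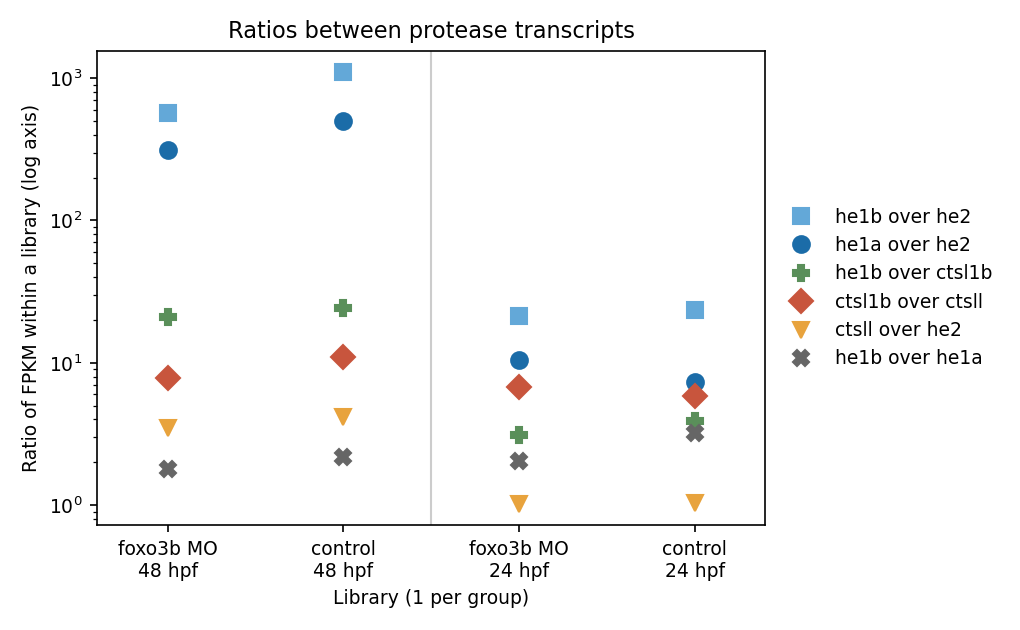
Ratios of FPKM between pairs of protease genes within each library (log axis), 1 point per ratio and library. The ratios of he1a and he1b to he2 lie between 7.32 and 23.7 in the 24 hpf libraries and between 312 and 1098 in the 48 hpf libraries.

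The genes beside the proteases were then described. On chromosome 22 the nearest genes, arl4ca and bzw1a, did not share the pattern of the hatching enzyme genes between them. The gene bzw1a stood at 225 FPKM in foxo3b MO and 273 FPKM in control at 48 hpf, and at 325 FPKM in foxo3b MO and 309 FPKM in control at 24 hpf. The GTPase gene arl4ca stood at 14.5 FPKM in foxo3b MO and 14.1 FPKM in control at 48 hpf, and at 12.2 FPKM in foxo3b MO and 6.83 FPKM in control at 24 hpf. Beside ctsll on chromosome 5, atp6v1aa and znf703 had log2 folds of -0.58 and 0.27 for foxo3b MO over control at 48 hpf.

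On chromosome 12 the direction of ctsl1b in each comparison was shared by every gene listed in the files between rpp30 and pank1b, by differing amounts. This interval of 497019 bases holds 7 genes in the files, ctsl1b and 6 others, which were picked out after their values had been seen. Of the 6 others, zgc:174855 and zgc:174153 carry a cathepsin L synonym in the RefSeq table, wu:fa26c03 and MGC174155 are in it without one, and MGC174152 and MGC174857 were not matched. Of the 18 protein-coding genes that RefSeq places between rpp30 and pank1b, 8 (ctsl1b included) have a cathepsin L symbol or synonym. At 48 hpf all 6 were at least 2-fold higher in foxo3b MO, beside 1.92% of all genes, with log2 folds between 1.04 and 1.40. None was at least 2-fold higher at 24 hpf, beside 3.12% of all genes, with log2 folds between 0.22 and 0.66. Scaled to equal total FPKM, 3 of the 6 passed 2-fold at 24 hpf, beside 19.5% of all genes. All 6 were at least 2-fold lower at 48 hpf than at 24 hpf, beside 11.5% of all genes in foxo3b MO and 8.75% in control. The log2 folds lay between -3.26 and -1.32 in foxo3b MO and between -4.09 and -2.35 in control. The foxo3b MO log2 fold at 48 hpf minus that at 24 hpf was at least 1 for 1 of the 6, MGC174155, at 1.18, beside 2.95% of all genes. That count was 3 with median-ratio scaling, 2 with equal totals and 4 with equal totals without ribosomal protein genes. On those scales it was at least 1 for 5.33%, 4.38% and 6.55% of all genes.

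The gene MGC174857 had the nearest values to ctsl1b, at 172 FPKM in foxo3b MO and 67.5 FPKM in control at 48 hpf, and at 1656 FPKM in foxo3b MO and 1163 FPKM in control at 24 hpf. The most abundant of the 7 at 24 hpf was zgc:174153, at 418 FPKM in foxo3b MO and 202 FPKM in control at 48 hpf, and at 3691 FPKM in foxo3b MO and 2342 FPKM in control at 24 hpf. The most abundant at 48 hpf was MGC174155, at 1096 FPKM in foxo3b MO and 415 FPKM in control, with 2741 FPKM in foxo3b MO and 2356 FPKM in control at 24 hpf. The flanking genes differed from these, with rpp30, which encodes a subunit of ribonuclease P, at 13.5 FPKM in foxo3b MO and 9.92 FPKM in control at 48 hpf, and pank1b, a pantothenate kinase gene, at 40.9 FPKM in foxo3b MO and 45.7 FPKM in control.

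Together the 7 genes took 0.236% of total FPKM in foxo3b MO and 0.0612% in control at 48 hpf, and 1.03% in foxo3b MO and 0.518% in control at 24 hpf. Total FPKM was lower in both foxo3b MO libraries, so these shares differ more than the summed FPKM. The sum was 3550 in foxo3b MO and 1470 in control at 48 hpf, and 16309 and 11849 at 24 hpf. The part of that sum held by ctsl1b was 4.03% in foxo3b MO and 3.75% in control at 48 hpf, and 9.11% in foxo3b MO and 10.5% in control at 24 hpf. Reads of similar genes could be shared among these loci in counting, and the 7 values may not be separate observations.

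**Figure D4:**
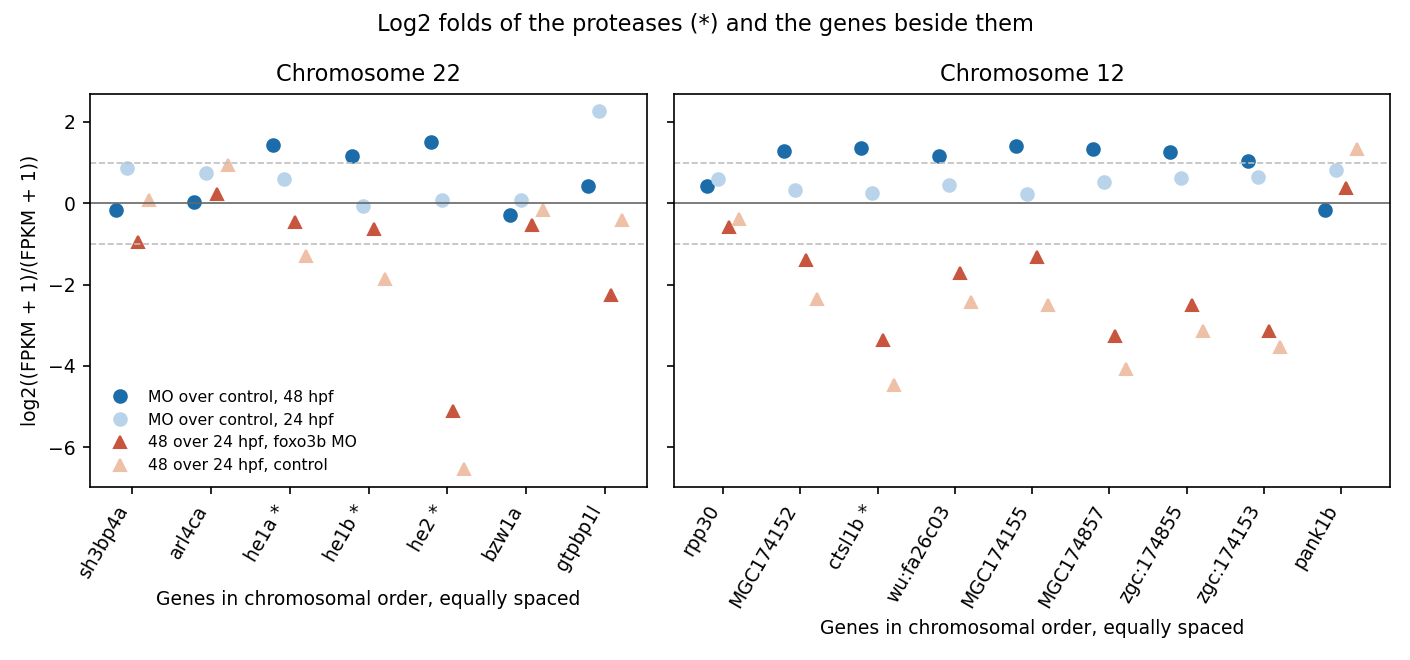
Log2((FPKM + 1)/(FPKM + 1)) of genes in chromosomal order, equally spaced, on chromosomes 22 and 12, with the proteases marked by an asterisk and dashed lines at 2-fold. Circles compare foxo3b MO with control and triangles 48 hpf with 24 hpf. Between rpp30 and pank1b all 7 genes lie above 1 for foxo3b MO over control at 48 hpf.

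Genes whose pattern over the 4 libraries was most like that of a protease were named by the Euclidean distance between log2(FPKM + 1) values centred over the libraries, among genes whose mean reached 10 FPKM and that had no value of 0. Each distance rests on 4 libraries. The nearest to ctsl1b were MGC174857 (0.30), ednrab (0.34), msgn1 (0.43), ctsll (0.49) and zgc:112355 (0.63). The nearest to ctsll was ctsl1b (0.49), followed by ednrab (0.62), MGC174857 (0.76), msgn1 (0.90) and cyp11a1 (0.95). The nearest to he2 was ctsll, at a distance of 1.504, and then ednrab (1.83), ctsl1b (1.91), cyp11a1 (1.91) and zgc:110712 (2.07), so no gene came as close to he2 as to the other proteases. The endothelin receptor gene ednrab, near 3 of the 5, stood at 2.63 FPKM in foxo3b MO and 0.597 FPKM in control at 48 hpf, and at 49.2 FPKM in foxo3b MO and 30.8 FPKM in control at 24 hpf.

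The nearest to he1b were hn1l (0.14), zgc:77287 (0.15), srl (0.15), ghitm (0.19) and zgc:194158 (0.21), and the nearest to he1a were arhgdia (0.31), mgst2 (0.34), hsd17b14 (0.35), wdr77 (0.37) and wasf3 (0.38). Neither he1 copy was among the 5 nearest of the other, with a distance of 0.63 between them. The distances of he1b to ctsl1b, ctsll and he2 were 2.68, 3.10 and 4.58.

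Of 12 measured regulators and other markers of the hatching gland, none was called between foxo3b MO and control at either stage, with medians of 0.06 at 48 hpf and 0.27 at 24 hpf. Over all 11971 genes, 1.92% were called as higher and 439 genes as lower at 48 hpf. At 24 hpf 3.12% were called as higher and 1.94% as lower. Beside these shares, no call among 12 genes does not set the list apart. Log2 folds were above 0 for 7 and below for 5 at 48 hpf, and 9 and 3 at 24 hpf. In FPKM, creb3l1 at 48 hpf (3.09 in foxo3b MO, 1.39 in control) and bhlha15 at 24 hpf (15.6 and 7.67) passed 2-fold, but not with 1 FPKM added. The lowest log2 fold was that of agr2, at -0.90 at 48 hpf and -0.81 at 24 hpf. With equal total FPKM 2 of the 12 were called as higher at 48 hpf and 3 at 24 hpf, beside 16.7% and 19.5% of all genes. With median-ratio scaling 1 was called as lower at 24 hpf, beside 3.11% of all genes. The gene klf4, now named klf17, which encodes a factor needed for the gland, stood at 10.7 FPKM in foxo3b MO and 9.61 FPKM in control at 48 hpf, and at 35.1 FPKM in foxo3b MO and 29.6 FPKM in control at 24 hpf. The secretory cell factor gene xbp1 stood at 174 FPKM in foxo3b MO and 163 FPKM in control at 48 hpf, and at 260.03 FPKM in foxo3b MO and 253 FPKM in control at 24 hpf. The gland fate gene prdm1a stood at 3.69 FPKM in foxo3b MO and 4.32 FPKM in control at 48 hpf, and at 17.9 FPKM in foxo3b MO and 10.6 FPKM in control at 24 hpf.

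Between stages the same list was mixed, with 5 of 12 at least 2-fold lower and 3 higher at 48 hpf in foxo3b MO, and 4 lower and 3 higher in control. Over all genes, 11.5% were lower in foxo3b MO and 8.75% in control, and of the 11971 genes 1882 and 2509 were higher. The log2 folds of klf4 were -1.63 in foxo3b MO and -1.53 in control, and those of bhlha15, a factor of secretory cells, were -2.43 and -1.90 in foxo3b MO and control. The higher genes were tmprss13b, gsc and agr2, the last a gene of mucus secretion that stood at 79.4 FPKM in foxo3b MO and 149.5 FPKM in control at 48 hpf, and at 19.6 FPKM in foxo3b MO and 35.0 FPKM in control at 24 hpf. The genes tmprss13b and gsc stood below 1 FPKM in both 24 hpf libraries. The 4 lower in control, klf4, prdm1a, foxa3 and bhlha15, were also at least 2-fold lower in foxo3b MO. The listed markers therefore did not move as 1 set between stages. The most abundant of them, cd63, which encodes a membrane protein of secretory vesicles, stood at 276 FPKM in foxo3b MO and 269.9 FPKM in control at 48 hpf, and at 269.6 FPKM in foxo3b MO and 190.3 FPKM in control at 24 hpf. Each of klf4, xbp1, prdm1a and foxa3 was above 0 in every library, as were all 12 genes of the list. Most genes were, with between 748 and 1151 of the 14417 at 0 by library.

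The secretory pathway, through which the proteases leave the cell, showed no call at 48 hpf among 57 measured genes between foxo3b MO and control, with a median of 0.10. Over all 11971 genes, 1.92% were called as higher and 439 genes as lower at 48 hpf. At 24 hpf 1 of the 57, the signal peptidase gene spcs1, was called, as lower, at 347 FPKM in foxo3b MO and 809.5 FPKM in control. Beside it, 1.94% of all genes were called as lower at 24 hpf and 3.12% as higher. With equal total FPKM 12 of the 57 were called as higher at 48 hpf, beside 16.7% of all genes, and 8 at 24 hpf, beside 19.5% of all genes. Between stages 8 were at least 2-fold lower and 3 higher in foxo3b MO, and 5 lower and 1 higher in control, beside 11.5% and 8.75% of all genes called as lower. Of the 11971 genes, 1882 were called as higher between stages in foxo3b MO and 2509 in control. The 5 lower in control became 11 with median-ratio scaling and 18 with equal totals without ribosomal protein genes, where 13.1% and 18.9% of all genes were lower. The chaperone gene hspa5 had log2 folds of -1.54 in foxo3b MO and -1.27 in control between stages.

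Among the other cathepsins, 12 genes were measured, with a median of 0.27 at 48 hpf. Of the 12, 2 were called as higher in foxo3b MO at 48 hpf, beside 1.92% of all genes, and none as lower. The 2 were ctssb.1, a cathepsin S gene, at 115 FPKM in foxo3b MO and 21.1 FPKM in control, and ctsh, at 46.1 FPKM in foxo3b MO and 16.3 FPKM in control. With equal total FPKM 5 of the 12 were called as higher, beside 16.7% of all genes. Both were also lower at 48 hpf than at 24 hpf, with log2 folds of -1.57 in foxo3b MO and -3.13 in control for ctssb.1, and of -1.92 in foxo3b MO and -3.41 in control for ctsh. By contrast ctsl1a, the most abundant of the list and a cathepsin L gene of lysosomes, stood at 1874 FPKM in foxo3b MO and 1491 FPKM in control at 48 hpf, and at 1531 FPKM in foxo3b MO and 1423 FPKM in control at 24 hpf. At 24 hpf ctsc was the only call of the list, at 138 FPKM in foxo3b MO and 48.1 FPKM in control. Over all genes, 3.12% were called as higher and 1.94% as lower at 24 hpf.

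Outside the chromosome 22 cluster 3 of the 10 astacin genes found in the files passed the floor, and none was called between foxo3b MO and control at either stage. Over all 11971 genes, 1.92% were called as higher and 439 genes as lower at 48 hpf. At 24 hpf 3.12% were called as higher and 1.94% as lower. With equal total FPKM 1 of the 3 was called as higher at 48 hpf and 2 at 24 hpf, beside 16.7% and 19.5% of all genes. With median-ratio scaling 1 was called as lower at 24 hpf, beside 3.11% of all genes. The gene npsn, an astacin of neutrophils, stood at 87.8 FPKM in foxo3b MO and 54.7 FPKM in control at 48 hpf, and at 1.70 FPKM in foxo3b MO and 3.81 FPKM in control at 24 hpf, a direction between stages opposite to that of he2. Of 9 measured protease inhibitors 2 were called as higher at 48 hpf in foxo3b MO, beside 1.92% of all genes, and none as lower, with no call at 24 hpf. The 2 were timp2b, an inhibitor of matrix metalloproteases, at 20.6 FPKM in foxo3b MO and 7.01 FPKM in control, and zgc:153129, the cystatin gene cst14b.1, at 366 FPKM in foxo3b MO and 179.9 FPKM in control. Scaling to equal total FPKM gave 3 called as higher at 48 hpf and 4 at 24 hpf, beside 16.7% and 19.5% of all genes. Genes of the zona pellucida family, whose egg envelope products the hatching enzymes digest, passed the floor in 3 of 12 cases, and none was called between foxo3b MO and control. Beside the all-gene shares given above, no call among 3 genes does not set a list apart. The highest, zp2.5, stood at 1.69 FPKM in foxo3b MO and 1.46 FPKM in control at 48 hpf, and at 7.47 FPKM in foxo3b MO and 6.19 FPKM in control at 24 hpf.

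Markers of other cell types also differed between these libraries. In bulk samples fewer cells of a type and less RNA per cell cannot be told apart. Epidermis markers had no call between foxo3b MO and control in 15 genes at either stage, with medians of -0.09 at 48 hpf and 0.21 at 24 hpf. Over all 11971 genes, 1.92% were called as higher and 439 genes as lower at 48 hpf. At 24 hpf 3.12% were called as higher and 1.94% as lower. Beside these shares, no call among 15 genes does not set the list apart. After scaling to equal total FPKM, 2 of the 15 were called as higher at 48 hpf and 4 at 24 hpf, with medians of 0.58 and 0.74. On that scale 16.7% and 19.5% of all genes were called as higher, with all-gene medians of 0.60 and 0.65. Their summed level was 30189 FPKM in foxo3b MO and 40129 FPKM in control at 48 hpf, and 30954 FPKM in foxo3b MO and 27720.0 FPKM in control at 24 hpf.

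Red cell markers, 13 genes, summed to 10042 FPKM in foxo3b MO and 26169.5 FPKM in control at 48 hpf, and to 3807 FPKM in foxo3b MO and 15738 FPKM in control at 24 hpf. Of these, 4 were called as lower in foxo3b MO at 48 hpf and 8 at 24 hpf, with medians of -0.48 and -1.23, and none was called as higher. Over all 11971 genes, 439 were called as lower at 48 hpf and 232 at 24 hpf. On equal total FPKM the 48 hpf median turned to 0.19, with 2 called in each direction, while the 24 hpf median was -0.73. On that scale 16.7% of all genes were called as higher and 1.17% as lower at 48 hpf. The all-gene medians there were 0.60 at 48 hpf and 0.65 at 24 hpf, so both red cell medians stayed below them. No red cell marker was at 0. Myeloid markers, 11 genes, summed to 460 FPKM in foxo3b MO and 507 FPKM in control at 48 hpf, and to 61.4 FPKM in foxo3b MO and 94.4 FPKM in control at 24 hpf. The largest part of the 48 hpf sum was the lysozyme gene lyz, at 214 FPKM in foxo3b MO and 382 FPKM in control. At 48 hpf 9 of the 11 had log2 folds above 0 and 2 below, with a median of 0.54, and the 24 hpf median was -0.07. Of the 11 myeloid markers 3 were called as higher at 48 hpf in foxo3b MO, beside 1.92% of all genes, and none as lower. The 3 were the matrix protease genes mmp9 and mmp13a and the cytokine gene il1b. The count called as higher at 48 hpf was 6 of the 11 with equal total FPKM, beside 16.7% of all genes. At 24 hpf 1 was called as lower, lyz, at 5.75 FPKM in foxo3b MO and 33.3 FPKM in control, beside 1.94% of all genes. Exocrine pancreas markers, another source of secreted proteases, passed the floor in 5 of 15 genes and summed to 30.0 FPKM in foxo3b MO and 34.2 FPKM in control at 48 hpf, and to 15.4 FPKM in foxo3b MO and 16.1 FPKM in control at 24 hpf. At 48 hpf ela2 was called as higher (3.21 FPKM in foxo3b MO, 0.0962 FPKM in control) and try as lower (0.593 and 5.05 FPKM). Over all 11971 genes, 230 were called as higher and 439 as lower. At 24 hpf ptf1a was called as lower, at a log2 fold of -1.07, beside 1.94% of all genes. With equal total FPKM none was called at 24 hpf, where 19.5% of all genes were called as higher and 0.69% as lower. Between 2 and 4 of the 15, by library, were at 0. The part of these cell types and of depth in the protease differences was not tested.

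**Figure D5:**
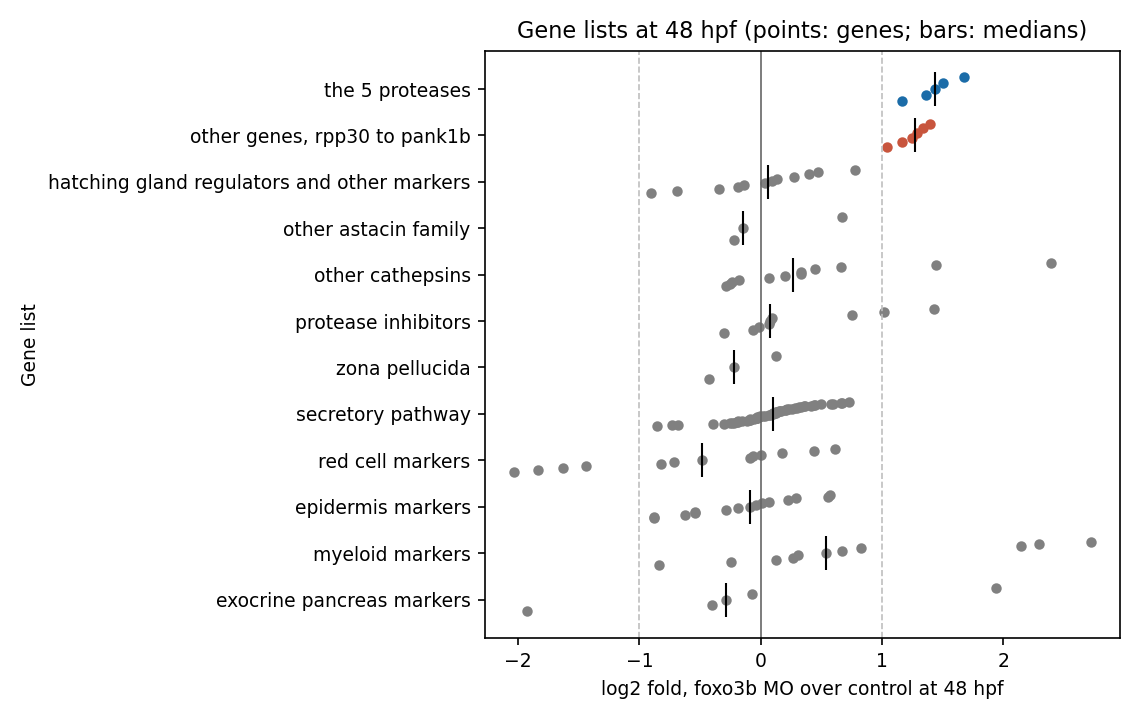
Log2 folds of foxo3b MO over control at 48 hpf for the genes of each list that passed the floor, 1 point per gene, with a bar at each median and dashed lines at 2-fold. The 5 proteases (blue) have a median of 1.44 and the 6 other genes between rpp30 and pank1b (red) one of 1.27. The list of hatching gland regulators and other markers has one of 0.06.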

How the data were processed

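RNA-seq of 4 libraries, 1 per group, was analysed. The authors deposited FPKM for 14417 genes. TopHat, Cufflinks and the Zv9 assembly are named in the submitters' processing notes, with version, options and annotation not given in the sources used here. Values were used as deposited. Log2 folds were log2((FPKM + 1)/(FPKM + 1)) over 11971 genes whose mean reached 1 FPKM, a gene was called at 2-fold, and no test was run. Only relative depth was estimated, from steps among values below 0.3 FPKM.

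The 9 alternatives added 0.1 or 5 FPKM in place of 1, dropped the floor or set it at 5 FPKM, and tried 3 scalings (median of gene ratios, equal total FPKM, and equal totals without ribosomal protein genes), leaving out genes listed at 0, and summing he1a and he1b. The background of genes whose mean reached 100 FPKM, the gene lists on other scalings and the chromosome 12 genes were added after the data were seen. The proteases and the gene lists were chosen with earlier results of these data known. Genes named from a list were its most abundant member and up to 3 with the largest log2 fold in a foxo3b MO comparison. Of these, the ones printed are those a result turns on. Outside the rule, chosen after their values were seen, are klf4, xbp1, foxa3, tmprss13b, gsc, hspa5 and the genes beside the proteases. Calculations were tested on simulated data. Python 3.11.15, numpy 2.4.6, pandas 2.3.3 and matplotlib 3.10.9 were used.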

Additional observations from a re-analysis of the deposited data

Results flagged for a closer look

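The log2 fold of he1b for foxo3b MO over control was 1.16 at 48 hpf and -0.072 at 24 hpf, so the 2 stages had opposite signs. With 1 library per group the difference was not tested, and on both equal-total scales the 24 hpf value was positive. The single he1b value is also subject to the division of reads between the copies. The sum of he1a and he1b had log2 folds of 1.26 at 48 hpf and 0.115 at 24 hpf, of the same sign.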

How the results depend on the processing

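For foxo3b MO over control at 48 hpf, for 48 hpf over 24 hpf in either group, and for the difference between stages, the median log2 fold kept its direction and its side of 2-fold and the counts of called proteases stayed within 1.5 times, under all 9 alternatives. At 24 hpf the median for foxo3b MO over control, 0.07, turned to -0.17 with median-ratio scaling, as did he2 (-0.17) and ctsll (-0.18), where that scaling moves the all-gene median by -0.20. The value of he1b at 24 hpf turned to 0.47 with equal total FPKM and 0.19 with equal totals without ribosomal protein genes, and with equal total FPKM 1 protease, he1a, was called as higher at 24 hpf, beside 19.5% of all genes on that scale. With 5 FPKM added, he2 dropped below 2-fold at 48 hpf, at 0.73, leaving 4 of the 5 called, beside 0.81% of all genes. Equal total FPKM moves the all-gene median at 48 hpf by 0.61 and calls 16.7% of all genes higher there, so that the count of 5 stands against a larger share than on the deposited scale. No paired analysis was possible because each group has 1 library and no replicate numbers pair libraries, and no library could be left out. A joint fit of stage and MO over the 4 libraries, which would average the stages, was not run. Counting error is unknown, and the 48 hpf values of he2 and ctsll in control are the lowest ones printed for the proteases.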
